A study of Mus musculus with 20 samples.

Results

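Suz12 binding was described at 10 genes that receive, make, carry or destroy retinoic acid, out of 21627 protein-coding genes of the annotation. The genes were chosen by function: the receptors Rara, Rarb and Rarg, the degrading enzymes Cyp26a1, Cyp26b1 and Cyp26c1, the binding proteins Crabp1 and Crabp2, the synthesising enzyme Aldh1a2 and the membrane receptor Stra6. A region is a stretch covered by overlapping Suz12 peaks of any of 8 peak lists, and 11943 regions were formed. By the rule used, a region belongs to a gene when it lies within 1 kb of either annotated end, which gave 7 regions at 6 of the 10 genes. Rara, Rarb, Cyp26b1 and Stra6 had none there, so 8 regions inside member genes were added after this was seen, and they are described apart from the 7. Where a gene has several regions they are numbered along the chromosome.

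Polycomb repressive complex 2 methylates lysine 27 of histone H3, and Suz12 is one of its core subunits. It was measured by ChIP-seq in mouse embryonic stem cells of the line E14, wild type and grown in serum with LIF. The 4 groups, of 2 libraries each, were DRB at 0 h, DRB at 12 h (100 µM), triptolide at 0 h and triptolide at 9 h (10 µM). DRB inhibits the kinase that frees paused RNA polymerase II for elongation, and triptolide blocks the TFIIH helicase needed for initiation. The comparison asks how Suz12 is placed once transcription has been stopped. The cells were 1 line and the drugs differed in dose and time.

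Retinoic acid is made from retinol by retinol and retinaldehyde dehydrogenases, of which Aldh1a2 is the main one of the early embryo. In the nucleus it binds the receptors RARα, RARβ and RARγ, which pair with RXR on response elements built of 2 short sites in tandem. CYP26 enzymes oxidise retinoic acid and so limit where it acts, and CRABP proteins carry it in the cytoplasm. Rarb and Cyp26a1 are textbook targets that retinoic acid itself switches on, and embryonic stem cells exposed to it leave the pluripotent state. Genes of this kind that are silent in embryonic stem cells are well known as Polycomb targets.

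The start sites of Rarb and Cyp26a1 lie within Suz12 regions, and their upstream sequences are shown because each holds a direct repeat of the receptor site with 5 bases between the copies (DR5). The site searched, on both strands, was NGNTCA with a purine as its first base and G or T between the G and the TCA, in tandem copies spaced by 1, 2 or 5 bases (DR1, DR2, DR5). All windows are 300 bases of the RefSeq promoter table (GRCm38.p6), 250 before and 50 after a start site, and 9 of the 10 members had an entry, with 16 windows. Crabp2 had no entry. The Rarb sequence is the 250 bases upstream of its start site, chr14:16575477-16575726 on the minus strand, with the 2 copies in capitals. For Cyp26a1 the first line is the window around its repeat, chr19:37697770-37697799 on the plus strand, with the 2 copies in capitals, and the next is chr19:37697558-37697737, the bases before the annotated gene start, with each CG in capitals.
Rarb: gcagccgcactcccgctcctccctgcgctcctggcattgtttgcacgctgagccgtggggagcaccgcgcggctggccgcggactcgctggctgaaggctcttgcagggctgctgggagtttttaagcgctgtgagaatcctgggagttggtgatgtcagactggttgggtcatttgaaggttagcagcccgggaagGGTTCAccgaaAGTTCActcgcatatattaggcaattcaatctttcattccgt
Cyp26a1 repeat: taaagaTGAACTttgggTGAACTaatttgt
Cyp26a1 upstream: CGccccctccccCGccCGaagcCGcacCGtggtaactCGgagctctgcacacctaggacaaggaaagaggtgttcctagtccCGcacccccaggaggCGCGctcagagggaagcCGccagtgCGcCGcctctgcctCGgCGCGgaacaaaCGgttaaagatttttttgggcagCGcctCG

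The Rarb repeat spans bases -53 to -37 from the start site (chr14:16575513-16575529) in the direction of the gene, and that of Cyp26a1 spans -32 to -16 (chr19:37697776-37697792) on the opposite strand. Among all 32619 windows of the table, 32 (0.0981%) held a DR5, 73 (0.224%) a DR1 and 88 (0.270%) a DR2. No other window of a member held a DR5, and none of the 16 held a DR1 or DR2. A match describes letters in a window and is not evidence of a bound site.

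The upstream sequences of Rara, Rarg and Aldh1a2 are shown with each CG in capitals, because Polycomb complexes are known for binding at CpG islands and these genes differed in how Suz12 behaved. They are chr11:98937446-98937695 on the plus strand for the first of 4 Rara start sites, chr15:102257523-102257772 on the minus strand for the upstream one of 2 Rarg start sites, and chr9:71215539-71215788 on the plus strand for Aldh1a2.
Rara: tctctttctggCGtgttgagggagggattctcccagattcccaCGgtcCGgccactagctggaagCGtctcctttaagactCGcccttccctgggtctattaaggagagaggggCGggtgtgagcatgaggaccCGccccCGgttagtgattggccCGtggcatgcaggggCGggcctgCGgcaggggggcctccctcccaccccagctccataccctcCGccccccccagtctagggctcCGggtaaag
Rarg: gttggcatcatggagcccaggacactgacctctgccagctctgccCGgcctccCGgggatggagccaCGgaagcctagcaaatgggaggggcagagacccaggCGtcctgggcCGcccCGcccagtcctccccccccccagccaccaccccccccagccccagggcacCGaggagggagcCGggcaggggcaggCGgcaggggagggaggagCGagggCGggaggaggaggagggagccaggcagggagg
Aldh1a2: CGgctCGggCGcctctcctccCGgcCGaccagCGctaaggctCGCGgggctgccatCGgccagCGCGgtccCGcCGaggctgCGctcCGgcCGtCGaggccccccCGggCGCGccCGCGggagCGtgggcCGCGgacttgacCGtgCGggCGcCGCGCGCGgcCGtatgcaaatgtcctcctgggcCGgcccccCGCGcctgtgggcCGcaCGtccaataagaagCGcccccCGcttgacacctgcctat

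Over the whole 300-base window, Aldh1a2 held 50 CpG at 78.0% G+C, with an observed-to-expected CpG ratio of 1.11. Cyp26a1 held 26 CpG with a ratio of 0.894, Rarb 17 with 0.696, the first Rara start site 20 with 0.609, Crabp1 17 with 0.543 and the upstream Rarg start site 12 with 0.335. The windows of Cyp26c1 and Cyp26b1 held only 5 and 9 CpG, with ratios of 0.235 and 0.314. The median of all windows was 7 CpG at 53.0% G+C, with a ratio of 0.387. The Cyp26b1 window lies outside any Suz12 region, since its nearest region begins 3025 bases downstream of the start site, while the CpG-poor Cyp26c1 window lies inside one that covers 1431 bases before to 3767 bases after the start site.

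The libraries had between 1323927 and 7340017 reads counted over all regions, and CPM below stands for reads per 1000000 of these after TMM scaling. Replicates of a group differed by more than counting error. The series design calls them biological, but whether the cultures were separate is not stated, so p-values measure only the spread between these libraries. The DRB count columns carry an index (ATCACG or TGACCA) and no replicate number, so DRB counts are named by index and DRB peak lists by replicate. The sequencing lane numbers in the column names were never shared by untreated and treated libraries, so lane cannot be told apart from treatment. All changes are relative. TMM over all regions left the median of the 11943 regions at a log2 change of 0.05, while scaling to the 4281 regions present in all 8 lists put that median at 0.41, and both values are given where the choice matters. Of the pluripotency genes checked, Pou5f1, Nanog, Esrrb and Zfp42 had no peak at an end in any list, and Sox2 had one in 0 of 4 untreated and 4 of 4 treated lists.

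Before any drug was added, Suz12 peaks were already present at the genes of the degrading enzymes, at Crabp1 and at Aldh1a2. Suz12 was called within 1 kb of an end of 6 of the 10 genes in at least 1 list, where 36.8% of all protein-coding genes have such a peak, and at 4 of the 10 in all 8 lists, against 14.6% of all genes. The 4 were Cyp26a1, Cyp26c1, Crabp1 and Aldh1a2. Crabp2 had a peak in 7 lists and missed only DRB 0 h replicate 1, and without that list 5 genes were bound in all. Rarg had one in all 4 treated lists but in only 1 untreated list, DRB 0 h replicate 1, where it was 455 bases long. With any region inside the gene counted, all 10 genes had a peak in some list and 5 in all 8, Cyp26b1 being added through a region that covers 8998 bases of its body. The share of all genes by this wider rule was not counted, so these numbers have no background. The Stra6 region also lies inside another gene. Within 1 kb of a RefSeq start site the numbers were 7 and 4. Crabp2 has no listed start site and could not be counted this way, and the share of all genes was not counted here either.

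**Figure D1:**
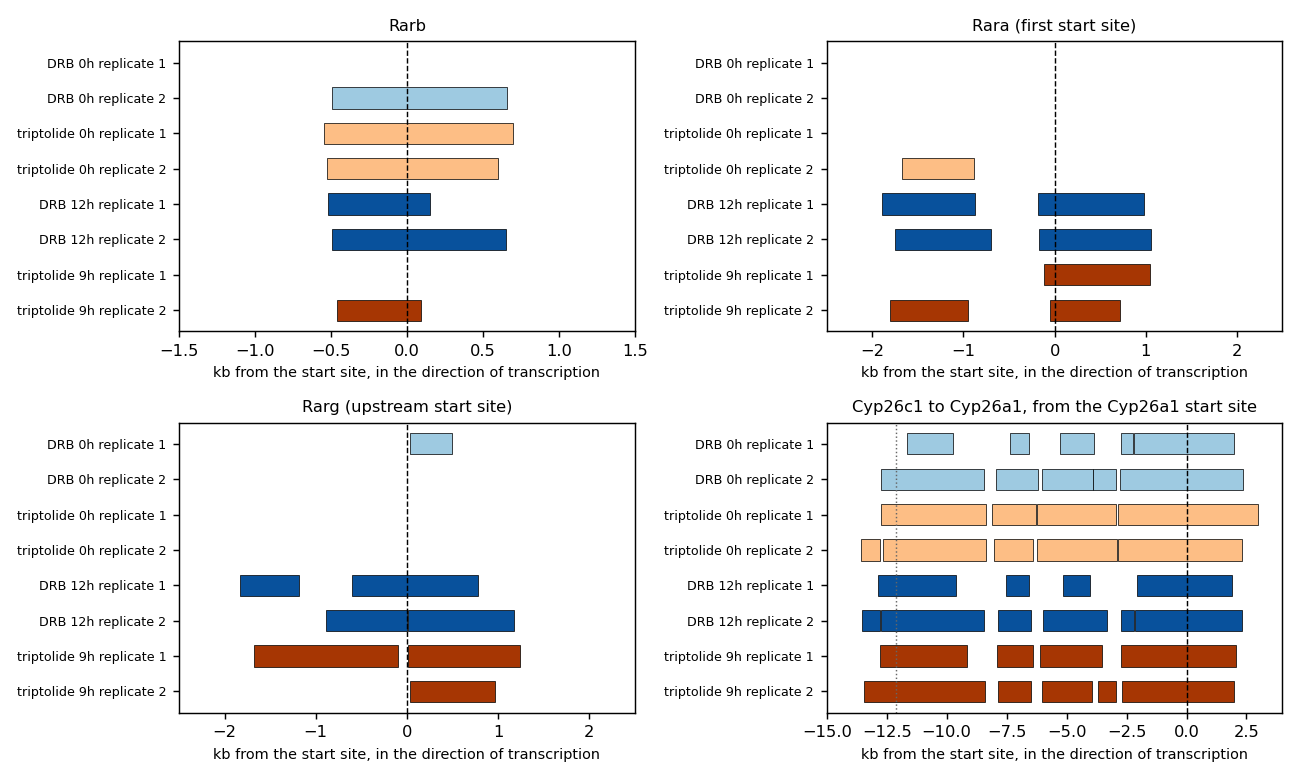
Peaks of each of the 8 lists, drawn as bars along the distance in kb from a start site, in 4 panels (Rarb, Rara, Rarg and the stretch from Cyp26c1 to Cyp26a1), with pale bars for 0 h lists and dark bars for treated lists. Dashed lines mark the start site and the dotted line that of Cyp26c1. The Cyp26c1 and Cyp26a1 stretch carries bars in all 8 lists, while Rara region 2 has bars in the 4 treated lists alone.

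Suz12 density per kb of counted peak differed between these regions before any drug was added. Over the 4 untreated libraries it was 121 ± 5.92 CPM per kb in Cyp26b1 region 2, 117 ± 8.11 at Cyp26a1 and 111 ± 8.43 at Aldh1a2 (SD, n = 4). These 3 neighbours in the order lie within their spread of each other. Crabp1 followed at 91.7 ± 5.93, Cyp26c1 region 2 at 79.0 ± 2.83 and Cyp26c1 region 1 at 62.9 ± 5.50 CPM per kb (SD, n = 4). A step lay below these, with Cyp26b1 region 1 at 36.2 ± 5.22, Rarb at 34.1 ± 2.78, Stra6 at 27.7 ± 3.60 and Crabp2 at 27.5 ± 1.97 CPM per kb (SD, n = 4). The regions of Rara and Rarg were the thinnest, at 20.9 ± 3.11 in Rara region 1 and between 11.0 and 12.7 CPM per kb on average in the other 4. In those 4 the counted peak came from a treated list and held no untreated peak. Neither a low untreated density nor a rise there is independent of how these intervals arose. Rara region 1, Stra6, Crabp2, Crabp1 and Cyp26c1 region 1 were also counted in peaks of treated lists. The counted Crabp2 peak covers 3702 bases, while its peaks in untreated lists cover 1200 to 1404. Its density and its place in this order thus depend on the peak used. Against all 11943 regions the untreated density of Cyp26b1 region 2 stood at percentile 97.9, that of Rarb at 63.6 and that of Rara region 2 at 12.3. After treatment the highest densities were 80.7 ± 4.95 CPM per kb in Cyp26b1 region 2 and 75.4 ± 11.5 at Aldh1a2, and Rara region 2 had reached 28.3 ± 4.36 (SD, n = 4).

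The receptor genes did not move together in the intervals counted: Suz12 rose at the start of Rara and at Rarg and fell at Rarb. The rises were counted in peaks of treated lists and the fall in a peak of an untreated list. These directions are thus not independent of how the intervals arose. Rara encodes RARα, the receptor found in most tissues (RefSeq gene 19401, chr11:98927800-98974942). Rara region 2, chr11:98937510-98938751, covers the first of its 4 listed start sites from 186 bases upstream to 1055 bases downstream and overlaps the predicted gene Gm46294. It held 16.4 and 13.9 CPM in the DRB 0 h libraries (index ATCACG, then TGACCA) and 40.0 and 32.9 CPM at 12 h. The triptolide libraries held 17.5 and 14.4 CPM at 0 h (replicates 1 and 2) and 37.4 and 27.9 CPM at 9 h. Every treated library lay above every untreated one. The log2 change over both drugs was 1.16 ± 0.17 (SE, edgeR adjusted p = 0.00013), with 1.29 ± 0.25 for DRB and 1.02 ± 0.23 for triptolide. It was 1.52 when scaled to the regions of all 8 lists. The single-drug calls were lost without DRB 0 h of index TGACCA (1.13, adjusted p = 0.054) and without triptolide 9 h replicate 1 (0.82, adjusted p = 0.062). A peak was called here in every treated list but in none of the untreated lists, and since lists and counts come from the same reads, the count is not independent of that.

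The other Rara regions changed less. Rara region 1, chr11:98935806-98936994, ends 702 bases upstream of the same start site and held 18.4 to 24.7 CPM untreated and 24.8 to 30.8 CPM treated. The ranges just fail to overlap, and the log2 change of 0.32 ± 0.16 did not pass the test (edgeR adjusted p = 0.10), though with scaling to the regions of all 8 lists it was 0.69 (adjusted p = 0.0029). Rara region 3, chr11:98960122-98960898, was called in 1 list, DRB 12 h replicate 1, and held 6.59 to 11.5 CPM untreated and 10.6 to 19.6 CPM treated. These ranges overlap. The region exists only through that treated list, so its log2 change of 0.68 ± 0.24 (edgeR adjusted p = 0.026) is not independent of how it was chosen, and it rests on as few as 14 reads in a library. The call was lost without any of 4 libraries: DRB 0 h of index TGACCA (0.57, adjusted p = 0.13), triptolide 0 h replicate 1 (0.65, 0.085) or 2 (0.72, 0.055) and triptolide 9 h replicate 1 (0.65, 0.079).

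Rarb encodes RARβ, a receptor that is also a target of retinoic acid (RefSeq gene 218772, chr14:16430839-17082331). Its Suz12 region, chr14:16574779-16576022, sits on the start site whose upstream bases are printed above, 144637 bases from the nearer annotated end of this long gene, and so holds the DR5. The DRB libraries held 44.4 and 42.6 CPM at 0 h (index ATCACG, then TGACCA) and 16.8 and 23.2 CPM at 12 h. The triptolide libraries held 45.3 and 37.5 CPM at 0 h and 24.3 and 21.6 CPM at 9 h (replicates 1 and 2). The highest treated library lay below the lowest untreated one. Suz12 fell by 0.96 ± 0.15 on the log2 scale over both drugs (SE, edgeR adjusted p = 0.00019), by 1.06 ± 0.22 under DRB and by 0.85 ± 0.21 under triptolide. Scaling to the regions of all 8 lists left a log2 change of -0.60 (adjusted p = 0.0060). The triptolide call alone was lost without 0 h replicate 1 (-0.71, adjusted p = 0.068) and without 9 h replicate 2 (-0.74, adjusted p = 0.083). The peak was called in 3 untreated and 3 treated lists, so that the peak calls did not separate the groups as the counts did. The counted peak came from an untreated list, so the size of the fall is not independent of how the interval arose.

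Rarg encodes RARγ, the receptor best known from skin and skeleton (RefSeq gene 19411, chr15:102234938-102257522, minus strand). Rarg region 2, chr15:102256283-102259350, spans its upstream start site, and its widest peak, in which reads were counted, covers 99 to 1675 bases upstream. The DRB libraries held 17.3 and 18.4 CPM at 0 h (index ATCACG, then TGACCA) and 30.8 and 27.01 CPM at 12 h. The triptolide libraries held 21.2 and 23.1 CPM at 0 h and 40.4 and 31.8 CPM at 9 h (replicates 1 and 2). Treated and untreated libraries did not overlap. The log2 change was 0.69 ± 0.15 (SE, edgeR adjusted p = 0.0021), and 1.05 with scaling to the regions of all 8 lists. The counted peak came from a treated list, and the 1 untreated peak of the region lies outside it. This change is thus not independent of how the interval arose. In that untreated peak, chr15:102257029-102257483, the libraries overlapped, with 6.59 to 23.8 CPM untreated and 19.0 to 35.2 CPM treated (log2 ratio 0.96). Peaks on the gene side of the start site were counted separately by the authors, and that at chr15:102256283-102257506 held 18.8 CPM on average untreated and 37.6 CPM treated, a log2 ratio of 1.00. Rarg region 1, chr15:102247580-102248110, had a peak in 1 list alone and held 4.00 to 10.7 CPM untreated and 6.14 to 13.2 CPM treated, with a log2 change of 0.47 ± 0.35 (edgeR adjusted p = 0.26).

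**Figure D2:**
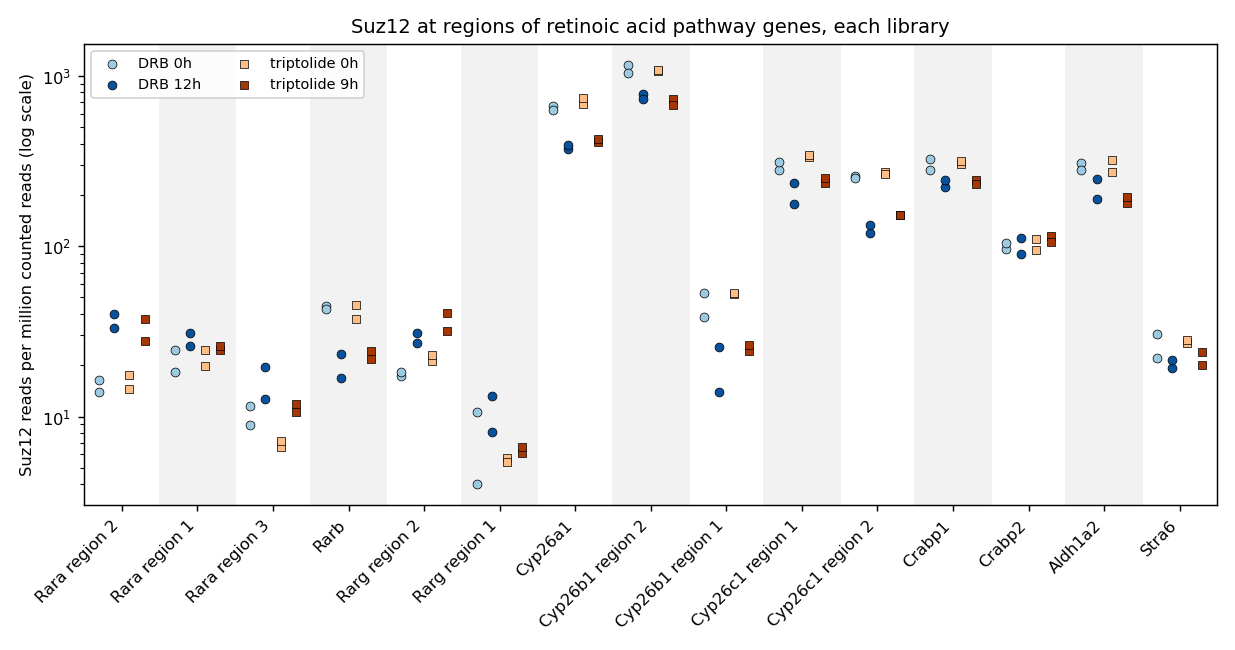
Suz12 CPM on a log axis in each of the 8 libraries for the 15 regions of the pathway genes, with circles for DRB, squares for triptolide, pale symbols for 0 h and dark symbols for treated libraries. Dark symbols sit above pale ones at Rara region 2 and Rarg region 2, and below them at Rarb and all 5 regions of the Cyp26 genes.

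The genes of all 3 degrading enzymes carried much Suz12 before treatment and less after it. Cyp26c1 and Cyp26a1 are neighbours on chromosome 19, with start sites 12128 bases apart, and their 3 regions cover chr19:37684249-37700798 with gaps of only 251 and 46 bases. Cyp26a1 encodes the enzyme that clears retinoic acid in the early embryo (RefSeq gene 13082, chr19:37697738-37701536). Its region, chr19:37694948-37700798, reaches 2860 bases before and 2990 bases after the start site and holds the DR5. The DRB libraries held 669 and 628 CPM at 0 h (index ATCACG, then TGACCA) and 373 and 394 CPM at 12 h. The triptolide libraries held 687 and 742 CPM at 0 h and 406 and 424 CPM at 9 h (replicates 1 and 2). The lowest untreated library was far above the highest treated one. Suz12 fell by 0.77 ± 0.08 on the log2 scale (SE, edgeR adjusted p = 1e-05), by 0.75 ± 0.11 under DRB and by 0.78 ± 0.11 under triptolide, and the change was -0.40 (adjusted p = 0.00025) when scaled to the regions of all 8 lists.

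Cyp26c1, which encodes a less studied member of the family, has RefSeq gene number 546726 and lies at chr19:37685112-37693320. Its region 2, chr19:37689699-37694901, runs from the gene body towards Cyp26a1, and the peak in which it was counted lies 2907 to 6228 bases upstream of the Cyp26a1 start site. It held 258 and 252 CPM at DRB 0 h (index ATCACG, then TGACCA) and 119 and 133 CPM at 12 h. At triptolide 0 h it held 273 and 266 CPM, and at 9 h 153 and 152 CPM (replicates 1 and 2). The groups were well apart, and this was the largest fall among the 7 regions at gene ends, at -0.92 ± 0.08 on the log2 scale (SE, edgeR adjusted p = 6.5e-06) and -0.55 with the other scaling (adjusted p = 0.00012). Each of the 18 peaks that the 8 lists place in this region, many of them overlapping, held less Suz12 on average after treatment, with log2 ratios between -1.24 and -0.63. Overlapping peaks share reads of the same libraries, so these ratios are not separate evidence of the fall. Region 1, chr19:37684249-37689447, covers the Cyp26c1 start site and lies within 1 kb of an end of Exoc6. It held 279 to 341 CPM untreated and 178 to 251 CPM treated. These ranges do not overlap, and the log2 change was -0.49 ± 0.10 (edgeR adjusted p = 0.0011). Scaled to the regions of all 8 lists it was -0.13 (adjusted p = 0.28), and counted over the narrowest peak it was -0.45 (adjusted p = 0.065), so this call depends on the setting.

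Cyp26b1 encodes the enzyme that clears retinoic acid in limb, hindbrain and gonad (RefSeq gene 232174, chr6:84571414-84593908, minus strand). Its Suz12 was in the gene body. Region 2, chr6:84581788-84590785, had a peak in all 8 lists and held more Suz12 reads than any other region of these genes. The DRB libraries held 1158 and 1033 CPM at 0 h (index ATCACG, then TGACCA) and 779 and 729 CPM at 12 h. The triptolide libraries held 1063 and 1089 CPM at 0 h and 726 and 670 CPM at 9 h (replicates 1 and 2). Untreated libraries all lay above treated ones, and the log2 change was -0.58 ± 0.07 (SE, edgeR adjusted p = 4.7e-05), or -0.21 (adjusted p = 0.011) with the other scaling. Region 1, chr6:84574172-84575915, is 2758 bases from the nearer annotated end and had a peak in 3 untreated lists and 1 treated list. It held 38.6 to 53.2 CPM untreated and 14.004 to 26.2 CPM treated, which do not overlap, and its log2 change of -1.12 ± 0.18 was the largest fall of all 15 regions (edgeR adjusted p = 0.00020), at -0.76 (adjusted p = 0.0039) with the other scaling. Its reads were counted in a peak of an untreated list, so this fall is not independent of how the interval arose. The same limit holds for Rarb, Cyp26a1, Cyp26c1 region 2, Cyp26b1 region 2 and Aldh1a2, also counted in peaks of untreated lists. Cyp26c1 region 1 and Crabp1, which fell too, were counted in peaks of treated lists.

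The 2 binding proteins differed. Crabp1 (RefSeq gene 12903, chr9:54764748-54773110) encodes a cytoplasmic carrier of retinoic acid, and its region, chr9:54763520-54766936, covers the start site. The DRB libraries held 325 and 280 CPM at 0 h (index ATCACG, then TGACCA) and 221 and 244 CPM at 12 h, and the triptolide libraries 302 and 315 CPM at 0 h and 243 and 230 CPM at 9 h (replicates 1 and 2). Every treated library was below every untreated one. The log2 change was -0.38 ± 0.09 (SE, edgeR adjusted p = 0.0027), equal to 2 decimals to the median of the regions in all 8 lists. With scaling to those regions it was -0.01 (adjusted p = 0.94), and with the sum of counts as library size -0.17 (adjusted p = 0.078), so the call rests on the TMM scaling.

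Crabp2 (RefSeq gene 12904, chr3:87948693-87953372) encodes the carrier that hands retinoic acid to its nuclear receptor. Its region, chr3:87946797-87950652, held 96.1 and 104 CPM at DRB 0 h (index ATCACG, then TGACCA) and 90.0 and 111 CPM at 12 h. It held 111 and 95.3 CPM at triptolide 0 h and 115 and 106 CPM at 9 h (replicates 1 and 2). The groups overlap fully, and the log2 change was 0.05 ± 0.11 (SE, edgeR adjusted p = 0.70), or 0.42 (adjusted p = 0.0076) with scaling to the regions of all 8 lists. The called peaks, though, were longer after treatment: they covered 1200 to 1404 bases in the 3 untreated lists with a peak and 2208 to 3702 bases in the 4 treated lists. Reads did not follow that length. The 1200 bases of the shortest untreated peak held 43.0 ± 1.90 CPM untreated and 45.9 ± 1.92 CPM treated, and the 2502 bases around them 58.6 ± 6.84 and 59.6 ± 12.3 CPM (SD, n = 4 each).

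At Aldh1a2 (RefSeq gene 19378, chr9:71215789-71296243), the enzyme gene with the CpG-richest window above, the region is chr9:71214932-71217648, from 857 bases before to 1859 bases after the start site. The DRB libraries held 308 and 282 CPM at 0 h (index ATCACG, then TGACCA) and 247 and 189 CPM at 12 h. The triptolide libraries held 273 and 322 CPM at 0 h and 178 and 194 CPM at 9 h (replicates 1 and 2). The groups do not overlap, with DRB 12 h of index ATCACG closest to the untreated libraries. Suz12 fell by 0.56 ± 0.10 on the log2 scale (SE, edgeR adjusted p = 0.00068), and the change was -0.19 (adjusted p = 0.098) when scaled to the regions of all 8 lists.

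Stra6 encodes the membrane receptor that takes up retinol from its carrier in blood (RefSeq gene 20897, chr9:58063793-58154004). Its region, chr9:58113042-58114042, lies 15046 bases upstream of the first listed Stra6 start site and also inside Ccdc33, so that it cannot be assigned to either gene. It was called in 1 untreated and all 4 treated lists, yet it held 22.1 to 30.4 CPM untreated and 19.2 to 23.9 CPM treated. These ranges overlap, and the log2 change was -0.31 ± 0.16 (SE, edgeR adjusted p = 0.11), turning to 0.06 (adjusted p = 0.78) with scaling to the regions of all 8 lists.

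Of the 7 regions at gene ends, 1 was higher and 5 were lower over both drugs at an edgeR adjusted p under 0.05, with a median log2 change of -0.49. Among all 11943 regions 28.0% were higher and 28.9% lower, with a median of 0.05. Scaled to the regions of all 8 lists, the 7 split into 2 higher and 2 lower with a median of -0.13, and all regions into 49.2% higher and 10.7% lower. Of the 8 regions inside genes, 2 were higher and 3 lower, or 3 and 3 with the other scaling. The 2 higher ones, Rara regions 2 and 3, had a peak in treated lists alone, so their calls are not independent of how the regions arose. The same holds for the 1 higher region at gene ends, Rarg region 2, whose counted interval held no untreated peak. Of the lower regions, Rarb, both Cyp26b1 regions, Cyp26a1, Cyp26c1 region 2 and Aldh1a2 were counted in peaks of untreated lists. Their falls carry the same limit. The 6 member regions with a peak in all 8 lists were all lower, with a median of -0.57, and 59.1% of all 4281 such regions were lower and 10.3% higher, with a median of -0.38. With the other scaling 3 of the 6 remained lower, against 23.3% of the 4281. Treated and untreated libraries did not overlap at 6 of the 7 regions at gene ends, 5 lower and 1 higher, where 25.2% of all regions were lower and 24.4% higher in this way. The 5 lower ones have a peak in all 8 lists. Of the 4281 such regions, 2271 were lower and 362 higher in this way.

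**Figure D3:**
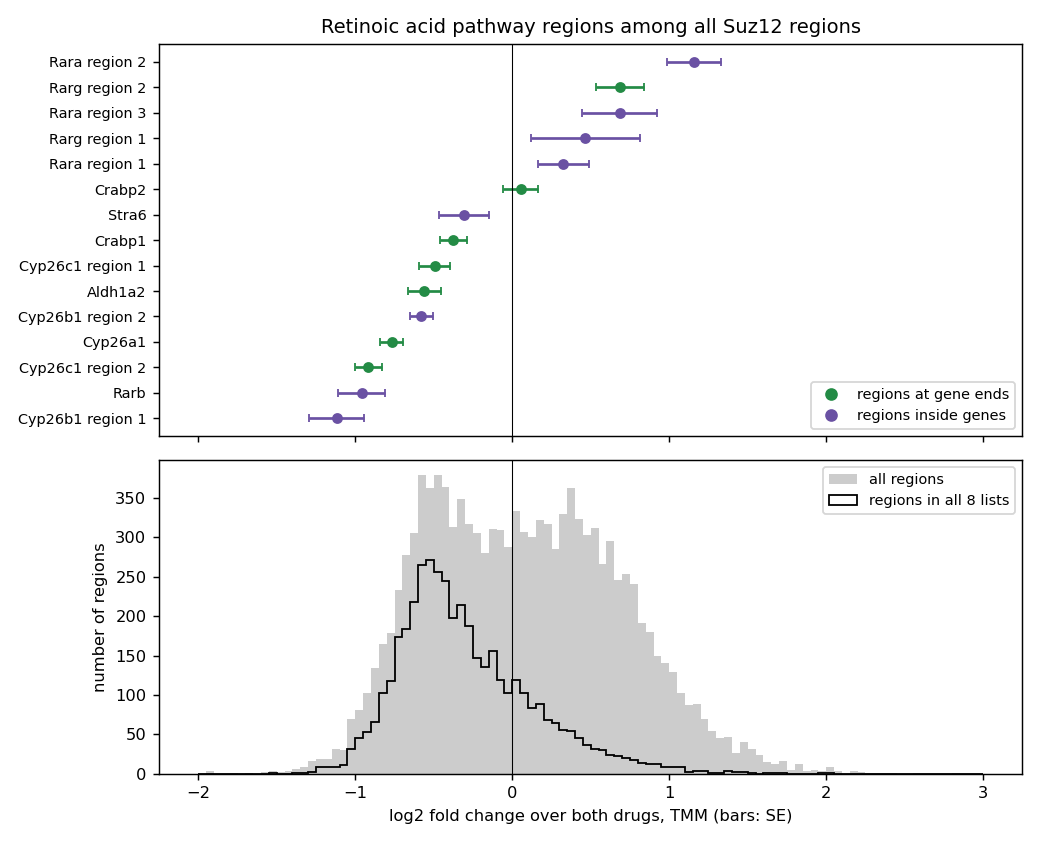
The upper panel shows the log2 change over both drugs (TMM, bars show SE) of the 15 regions, in green at gene ends and in purple inside genes, and the lower panel the number of regions at each log2 change for all 11943 regions (grey) and for the 4281 in all 8 lists (line). Rara region 2 lies at 1.16, Cyp26b1 region 1 at -1.12, and Crabp1 at -0.38 near the middle of the line.

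No difference between the drugs was detected at these genes. Under DRB 1 of the 7 regions at gene ends was higher and 5 were lower, where 18.0% and 19.2% of all regions were, and under triptolide the numbers were again 1 and 5, against 19.3% and 21.9%. The 5 lower ones have a peak in all 8 lists. Of the 4281 such regions, 42.4% were lower under DRB and 48.7% under triptolide. Inside genes 1 was higher and 3 were lower under each drug. Scaled to the regions of all 8 lists, the 8 regions inside genes split into 3 higher and 2 lower under DRB, where 33.0% and 4.78% of all regions were, and into 3 higher and 0 lower under triptolide, against 38.0% and 4.75%. The 7 at gene ends then split into 1 higher and 2 lower under DRB and 2 and 2 under triptolide. Inside genes, the falls that lost their triptolide call in this way were Rarb (edgeR adjusted p = 0.10) and Cyp26b1 regions 1 (0.052) and 2 (0.056). Cyp26b1 region 2 also lost its DRB call (0.086). At gene ends, Cyp26c1 region 1, Crabp1 and Aldh1a2 lost the calls under both drugs. Their edgeR adjusted p was 0.67, 0.91 and 0.11 under triptolide and 0.32, 0.83 and 0.53 under DRB. The test of the difference between the drugs, DRB minus triptolide, called none of the 15 regions (edgeR adjusted p = 0.9994 at each) and 0.0167% of all regions, and at an unadjusted p under 0.05 it also called 0. The differences ran from -0.21 ± 0.30 at Rarb to 0.54 ± 0.69 at Rarg region 1 (log2 ± SE), and at Cyp26a1 the difference was 0.03 ± 0.15. With 2 libraries per group, differences of the size of these errors were not detectable, and the drugs differed in dose and time. The single-drug calls are less firm than the mean of both. Leaving out 1 library left between 0 and 1 region higher for either drug, and between 3 and 5 lower for DRB or 2 and 5 for triptolide, while over both drugs the counts of 1 and 5 held in every such fit. The 1 higher region under DRB was lost without either DRB 0 h library, DRB 12 h of index ATCACG or either triptolide 9 h library, and that under triptolide without either triptolide 0 h library or 9 h replicate 1. Lower regions under DRB numbered 3 without either DRB 0 h library or DRB 12 h of index ATCACG. Under triptolide they numbered 3 without either 0 h library or 9 h replicate 2, and 2 without 9 h replicate 1.

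**Figure D4:**
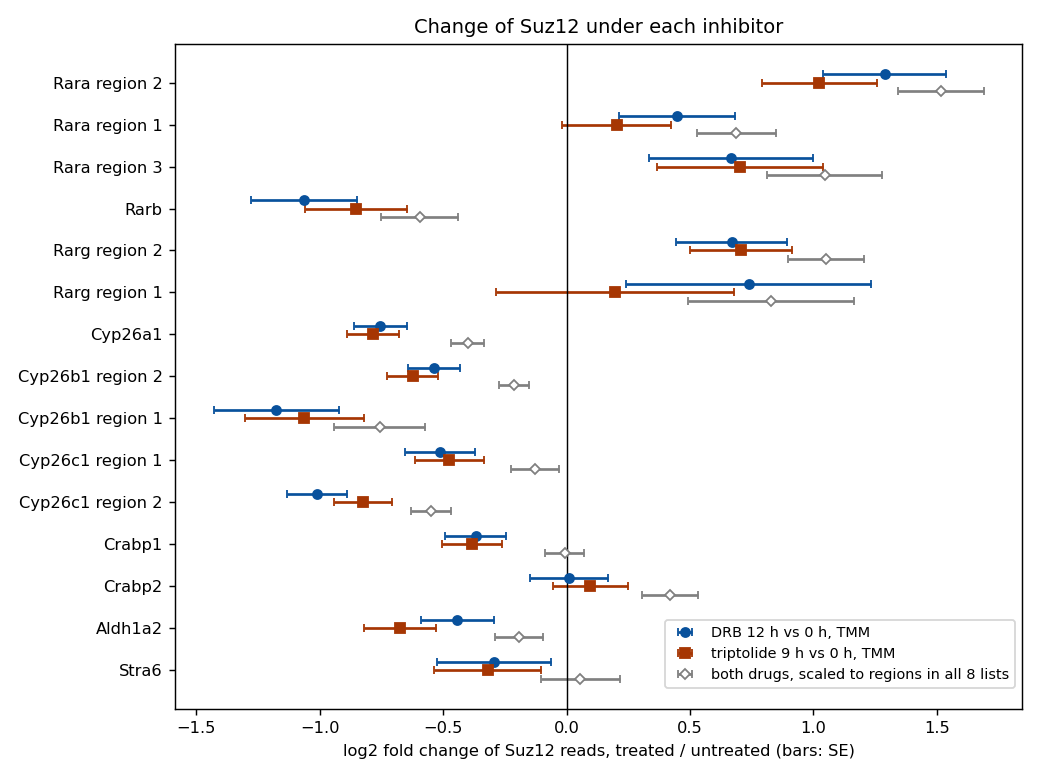
Log2 change of Suz12 reads (x axis, treated over untreated, bars show SE) in each of the 15 regions (y axis) for DRB (blue circles) and triptolide (red squares) with TMM, and over both drugs scaled to the regions of all 8 lists (open diamonds). The blue and red bars overlap in every region, and each diamond lies to the right of the blue and red symbols of its region, with Crabp1 moving to -0.01.

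The regions at other genes whose pattern over the 8 libraries was most like that of Rarb and Cyp26a1 were found by the root mean square difference in log2(CPM + 1), each region centred on its own mean. Closest to Rarb, of 7654 genes' regions ranked, were those of Col25a1 (0.081), Luzp2 (0.085) and Plcxd3 (0.091), with log2 changes over both drugs of -0.92, -0.85 and -0.81. Closest to Cyp26a1, of 7653, were Neurog2 (0.045), Pgr (0.046) and Lhfpl3 (0.047), with log2 changes of -0.76, -0.72 and -0.75.

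Other genes of the pathway were counted from 2 lists. Of 31 genes that supply retinoids or act with the receptors, 16 had a region at an end, which 36.8% of all genes had. In an untreated list 11 of them had one, and the share of all genes was not counted for this. In all 8 lists 9 had a peak, which 14.6% of all genes had. Of their 16 regions 7 were higher, 5 lower and 4 not called, with a median log2 change of 0.17, beside 28.0% higher, 28.9% lower and a median of 0.05 over all regions. With scaling to the regions of all 8 lists 9 were higher and 3 lower, beside 49.2% and 10.7%. Among the partners of the receptors, Rxrb held 9.38 to 16.0 CPM untreated and 19.9 to 35.2 CPM treated, a log2 difference of 1.01 ± 0.21, in a region that exists only through a peak of 1 treated list, so that the difference is not independent of how the region arose. Rxrg fell by 0.36 ± 0.11 (edgeR adjusted p = 0.016; 0.00 with the other scaling) and Rxra did not pass, at 0.26 ± 0.14 (adjusted p = 0.14; 0.63, 0.0019 with the other scaling). The largest change was at Ncoa3, a coactivator of nuclear receptors, which went from 13.97 to 23.8 CPM untreated to 44.4 to 50.99 CPM treated, a log2 change of 1.23 ± 0.14. Lrat, which encodes the enzyme that stores retinol as esters, fell by 0.77 ± 0.13 (adjusted p = 0.00042). Ncoa3 and Ncoa2, the latter named after its values were seen, had a peak in each of the treated lists but in none of the untreated ones, so that their counts are not independent of how the regions arose.

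Of 18 genes known to respond to retinoic acid, 17 had a region, which 36.8% of all genes had. In all 8 lists 15 had a peak, which 14.6% of all genes had. Of their 22 regions 1 was higher, 15 were lower and 6 were not called, with a median log2 change of -0.46. Among all regions with a peak in all 8 lists 59.1% were lower, with a median of -0.38. The 22 split into 3 higher and 3 lower with a median of -0.09 when scaled to the regions of all 8 lists. The lower ones included Hoxb1, a hindbrain Hox gene with a well known retinoic acid response element, which held 183 to 213 CPM untreated and 111 to 129 CPM treated and fell by 0.70 ± 0.10 (edgeR adjusted p = 8e-05). All 3 regions of Nr2f2, an orphan nuclear receptor gene, fell, with log2 changes of -0.80 ± 0.17, -0.70 ± 0.08 and -0.52 ± 0.11 (edgeR adjusted p = 0.0019, 3.1e-05 and 0.0014), and with the other scaling the second of these still passed at -0.33 (adjusted p = 0.0032) and the others did not (0.056 and 0.24). All 3 regions of Foxa1, an endoderm factor, fell as well, the most by 0.65 ± 0.13 (adjusted p = 0.0014), and with the other scaling none of them passed (adjusted p = 0.060 to 0.55). Gbx2, a homeobox gene expressed in embryonic stem cells, was the 1 that rose, from 273 to 350 CPM untreated to 415 to 529 CPM treated, a log2 change of 0.65 ± 0.08 (adjusted p = 4e-05).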

How the data were processed

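Bowtie, MACS and the build mm10 (GRCm38) are named in the submitters' processing notes, without versions. Each of the 8 deposited lists gives 1 library's peaks with no score and, per the file headers, 13 columns of raw read counts. The deposited counts are whole numbers with no normalization. Of the 13 columns, 8 matched the groups of the labels and 5 were not used, and 12 of the 20 samples of the series were not analysed here.

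Peaks overlapping by 1 bp were merged into 11943 regions, and a region took the counts of the widest peak in it. The test was edgeR 4.0.16 (R 4.3.3; limma 3.58.1) quasi-likelihood with TMM, 4 groups and no filter, and Benjamini-Hochberg adjustment over all regions (threshold 0.05). SE is the log2 change divided by the root of F. The script was tested on simulated data. The gene annotation (GRCm38.p6) carries no strand, so either gene end counted. Strand and start sites came from the RefSeq promoter table.

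Alternatives were DESeq2 1.42.0, its size factors, the sum of counts as library size, TMM on the regions of all 8 lists, a filter on low counts, other ways to count a region, single-drug fits, a replicate block, other windows, and leaving out each library. The members and lists were chosen with earlier results of these data known. All members are named. From each list the text takes up to 4 genes of largest change past the threshold and the 3 Rxr genes, and 3 genes most like Rarb and Cyp26a1 (pseudocount 1 CPM). A gene that this rule takes is not reported here.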

Additional observations from a re-analysis of the deposited data

How the results depend on the processing

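Values refer to the 7 regions at gene ends unless a gene is named. Scaling to the regions of all 8 lists gave 2 higher and 2 lower over both drugs, 2 lower under DRB, and 2 higher and 2 lower under triptolide. With the sum of counts as library size 2 were lower under DRB and 3 under triptolide. DESeq2's Wald test called 0 higher under DRB and 0 under triptolide, counts over the narrowest peak gave 0 higher under DRB, and a fit of the DRB libraries alone gave 0 higher and 2 lower. Leaving out 1 library gave 0 to 1 higher for each drug, 3 to 5 lower under DRB and 2 to 5 lower under triptolide. Lone libraries in such fits are assumed to vary like the other groups. Genes with a peak in any list rose from 6 to 10 when the whole gene counted, a rule for which no share of all genes was counted.

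Some uncalled or weak values changed sign. Scaled to the regions of all 8 lists, Crabp1 under triptolide was 0.017 and Stra6 was 0.055 over both drugs, 0.032 under DRB and 0.079 under triptolide. The narrowest Crabp2 peak was a side peak of 589 bases from triptolide 9 h replicate 2, not the 1200-base peak above. Over it Crabp2 was -0.32 for both drugs, -0.48 under DRB and -0.16 under triptolide. Under DRB Crabp2 was -0.017 with DESeq2's size factors and -0.017 in its Wald test. Without 1 library Crabp2 ranged from -0.036 to 0.13 over both drugs, from -0.20 to 0.13 under DRB and from -0.0049 to 0.21 under triptolide, and Rarg region 1 from -0.070 to 1.34 under DRB. The cause was not tested. No called value of Rara region 2, Rarb, Rarg region 2, Cyp26a1, Cyp26b1 or Cyp26c1 region 2 over both drugs lost its call under any alternative run.

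Only the triptolide columns carry replicate numbers, and the labels do not say that these pair the libraries. With a replicate block in a fit of these 4 libraries, 1 region was higher and 5 were lower, as without the block. Deviations of same-numbered libraries had a correlation of 0.394 over regions. The DRB columns carry no replicate number but share an index across both times. An alternative added after seeing the data took the index as a replicate block in the DRB libraries alone and gave 1 higher and 5 lower, against 0 and 2 in these libraries without it. Deviations of same-index DRB libraries had a correlation of 0.375. Regions of few reads (Rara region 3, Rarg region 1) limit the precision.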
